A study of Saccharomyces cerevisiae with 4 samples.

Results

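The methionine salvage pathway of yeast was followed here through 9 genes, MEU1, MRI1, MDE1, UTR4, ADI1, ARO8, ARO9, BAT1 and BAT2, chosen by their systematic names out of 6600 coding sequences in the table. All 9 had a row, and all 9 passed the filter on low counts, which left 5233 genes tested. The measurement was ribosome profiling, in which the mRNA pieces that ribosomes protect from nuclease are sequenced, so a count reflects the ribosomes found on a coding sequence. The mutant was a Saccharomyces cerevisiae strain in which OAZ1, which normally needs a shift of reading frame, was exchanged for a version read in 1 frame. It was set against a wild type (WT), and each group had 2 libraries. Both groups were in the 74D-694 background, a laboratory strain, grown in synthetic medium to the middle of exponential growth, and both received cycloheximide at 50 µg/mL, which holds ribosomes in place. Whether replicates came from separate cultures is not in the labels, so each p-value rests on the spread between libraries that may differ only technically. No mRNA libraries were analysed here, so a difference in footprints cannot be told apart from a difference in mRNA.

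Methylthioadenosine is left over each time a polyamine such as spermidine is made from decarboxylated S-adenosylmethionine (AdoMet). Salvage returns its methylthio group and ribose carbons to methionine and releases its adenine. MEU1 encodes the phosphorylase that splits off the adenine, MRI1 the isomerase that acts on the methylthioribose phosphate left over, MDE1 the dehydratase, UTR4 the enolase-phosphatase and ADI1 the acireductone dioxygenase. The keto acid so made is turned into methionine by aminotransferases, a step shared by the aromatic enzymes ARO8 and ARO9 and the branched-chain enzymes BAT1 and BAT2, whose main work lies in other amino acid pathways. OAZ1 encodes antizyme, which sends ornithine decarboxylase, at the head of the polyamine route, to the proteasome.

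The branched-chain and aromatic pairs each do the same reaction, so the first question was whether footprints could be assigned to 1 gene of a pair. The longest run of bases that BAT1 and BAT2 share is given here in capitals, with the 20 bases on either side in lower case, from the plus strand of the RefSeq R64 genome at chrVIII:518133-518189 for BAT1 and chrX:706294-706350 for BAT2; the same is shown for ARO8 (chrVII:116685-116740) and ARO9 (chrVIII:376371-376426).
BAT1: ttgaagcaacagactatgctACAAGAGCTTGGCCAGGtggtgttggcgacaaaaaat
BAT2: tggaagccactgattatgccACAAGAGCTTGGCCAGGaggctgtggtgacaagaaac
ARO8: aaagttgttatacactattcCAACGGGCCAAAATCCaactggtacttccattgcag
ARO9: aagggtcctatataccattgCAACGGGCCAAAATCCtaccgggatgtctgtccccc
The shared run was 17 bases long between BAT1 and BAT2 and 16 bases long between ARO8 and ARO9. None of the 28-base words of any of the 9 coding sequences occurred in another coding sequence of the reference, on either strand. None of the 9 overlapped another RefSeq coding sequence. The reference is the S288C strain, so differences of 74D-694 from it were not covered.

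The libraries held 7571371 and 2826895 counts in mutant replicates 1 and 2, and 29671498 and 10202557 counts in WT replicates 1 and 2. Across the 4603 tested genes that averaged 100 counts or more, log2 levels differed with an SD of 0.29 between the mutant libraries, 0.49 between the WT libraries and 0.22 between mutant replicate 1 and WT replicate 2. WT replicate 1 thus stood apart from the other WT library. OAZ1 had 20.5 and 18.1 CPM in mutant, against 12.7 and 10.7 CPM in WT (CPM, counts scaled to a library total of 1000000, after TMM normalization, the scale used for every level below unless stated). For OAZ1 the mutant libraries thus lay above the WT libraries, with a log2 fold change (mutant over WT) of 0.73 (SE 0.22; edgeR adjusted p = 0.755). Of all genes tested, 19.1% had this order of the groups. The fold change of OAZ1 was between 0.63 and 0.87 with any 1 library left out. The exchange leaves the gene present, so its total count does not check the labels by presence or absence. Whether the change of frame itself alters the footprint count of OAZ1 was not tested. Marker genes of a cells summed to 345 to 381 plain CPM in mutant and 338 to 725 in WT, and those of alpha cells to 3.18 to 4.75 in mutant and 5.49 to 8.43 in WT.

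No member passed the test between mutant and WT. By edgeR's quasi-likelihood test at an adjusted p of 0.05, 0 of 9 members were higher and 0 lower in mutant, as were 0% of the 5233 genes in each direction. At an unadjusted p below 0.05, 1 member was higher, UTR4, against 1.72% of all genes (90 genes), and none was lower, against 3.73% (195 genes). DESeq2 called 4 genes in all, none of them a member. The log2 fold change lay above 0 for 7 of 9 members, against 48.4% of all genes. The median was 0.19 over the 9 members and -0.01 over all genes tested. The 5 enzymes specific to salvage all lay above 0, with a median of 0.35, while 2 of the 4 aminotransferases did, with a median of 0.01.

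**Figure D1:**
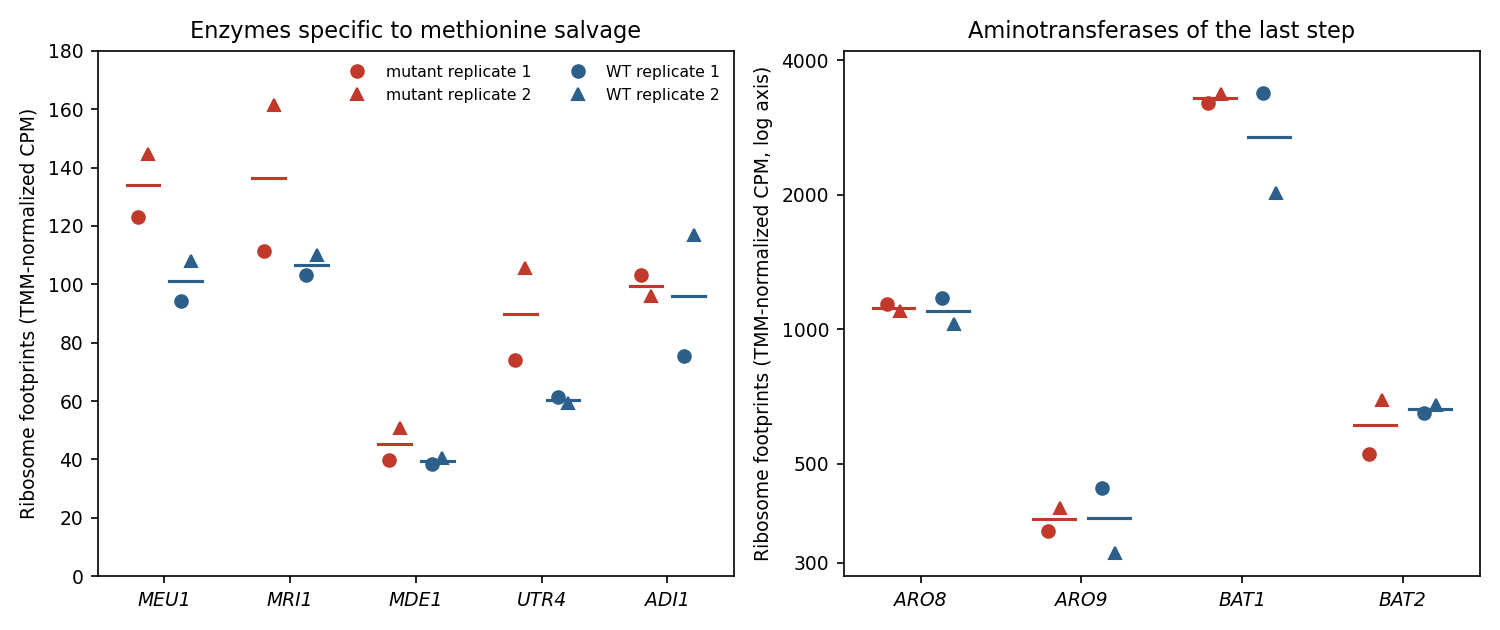
Ribosome footprints on each member in each library, as TMM-normalized CPM; the left panel (linear axis) shows the 5 enzymes specific to salvage and the right panel (log axis) the 4 aminotransferases. Points are single libraries and short lines are group means; the mutant points lie above both WT points for MEU1, MRI1 and UTR4, and the WT points of BAT1 lie far apart, at 3380 and 2017 CPM.

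MEU1 (YLR017W), the entry enzyme, lies on the plus strand of chromosome XII from 177608 to 178621 in R64. It had 123 and 145 CPM in mutant replicates 1 and 2, and 94.4 and 108 CPM in WT replicates 1 and 2. Both mutant libraries were above both WT libraries. The log2 fold change was 0.40 (SE 0.18, 95% interval -0.03 to 0.83), with an adjusted p of 0.755 in edgeR. It was between 0.28 and 0.52 with any 1 library left out.

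MRI1 (YPR118W), the isomerase, is on chromosome XVI, plus strand, 767752 to 768987. It had 112 and 161 CPM in mutant, against 103 and 110 CPM in WT. Mutant replicate 1 lay only just above the WT libraries, and mutant replicate 2 lay well above the rest. Its log2 fold change was 0.35 (SE 0.22, 95% interval -0.18 to 0.88), with an adjusted p of 0.756 in edgeR. It was 0.07 without mutant replicate 2, the shallowest library, and 0.60 without mutant replicate 1.

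MDE1 (YJR024C), the dehydratase, lies on the minus strand of chromosome X from 470230 to 470964 and had the lowest level per length of the 9 members. It had 39.9 and 50.7 CPM in mutant, against 38.5 and 40.4 CPM in WT, so mutant replicate 1 lay between the WT libraries. In the fit its log2 fold change was 0.19 (SE 0.20, 95% interval -0.29 to 0.67; edgeR adjusted p = 0.865). Without mutant replicate 2, where MDE1 had 137 counts, it was 0.02, and without mutant replicate 1 it was 0.37.

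UTR4 (YEL038W), the enolase-phosphatase, had the highest fold change of the 9 members and lies on the plus strand of chromosome V from 80462 to 81145. It had 74.1 and 105 CPM in mutant, against 61.3 and 59.3 CPM in WT. The WT libraries nearly coincided, and both mutant libraries lay above them. The log2 fold change of UTR4 was 0.56 (SE 0.22, 95% interval 0.03 to 1.10), with an unadjusted p of 0.041 and an adjusted p of 0.755 in edgeR. It ranked 88 from the top of the 5233 fold changes. The gap between the mutant libraries exceeded counting error. As plain shares of the total they stood at 76.2 CPM (95% Wilson interval 70.2 to 82.7) and 101 CPM (89.8 to 113), from 577 and 285 counts. The WT libraries stood at 61.8 CPM (59.0 to 64.7) and 59.8 CPM (55.2 to 64.7), from 1834 and 610 counts. The fold change was 0.30 with mutant replicate 2 left out and 0.81 with mutant replicate 1 left out. Without WT replicate 2 it was 0.53, and without WT replicate 1 it was 0.57.

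ADI1 (YMR009W), the dioxygenase, lies on the plus strand of chromosome XIII from 284102 to 284641. It had 103 and 95.8 CPM in mutant, against 75.3 and 117 CPM in WT. The WT libraries enclosed both mutant libraries. For ADI1 the log2 fold change was 0.05 (SE 0.24, 95% interval -0.54 to 0.65; edgeR adjusted p = 0.982). It was -0.23 with WT replicate 1 left out and 0.41 with WT replicate 2 left out, so its sign followed the WT library that was kept.

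Of the 9 members, 3 had groups that did not overlap, all with mutant higher (MEU1, MRI1 and UTR4), against 19.1% of all genes in that direction. None had mutant lower without overlap, against 17.9% of all genes. With plain library totals in place of TMM, MDE1 joined them, giving 4 members against 17.2% of all genes. Summed over the 5 salvage-specific enzymes, the level was 452 and 558 CPM in mutant and 373 and 435 CPM in WT. Their median fold change was 0.10 with mutant replicate 2 left out and 0.52 with mutant replicate 1 left out, so its size rested largely on mutant replicate 2. The part that depth or library profile plays in this was not tested.

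**Figure D2:**
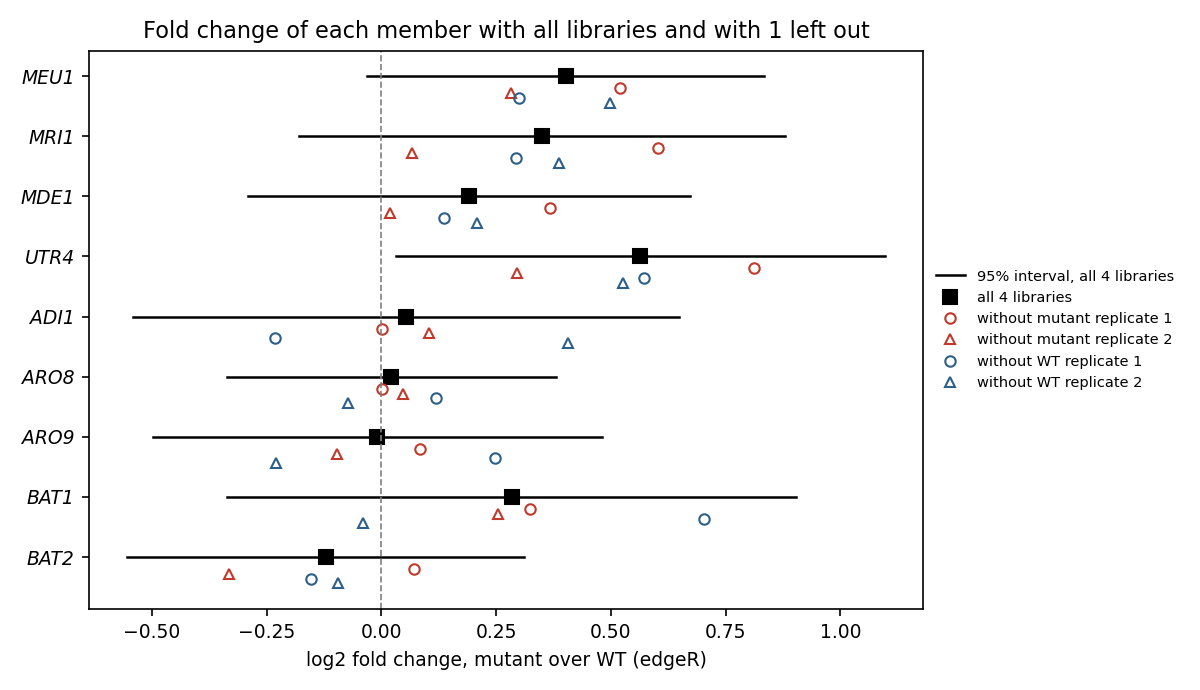
Log2 fold change of each member, mutant over WT, from edgeR; black squares and lines give the estimate and 95% interval with all 4 libraries, and open symbols the estimate with 1 library left out. Only the interval of UTR4 lies clear of 0 (0.03 to 1.10), and BAT1 moves to 0.70 without WT replicate 1 and to -0.04 without WT replicate 2.

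The aminotransferases carried most of the footprints on these 9 genes. They held 92.1% and 90.9% of the members' counts in mutant and 93.8% and 90.3% in WT, and BAT1 alone held 56.6% and 55.0% in mutant and 56.2% and 45.1% in WT. All 9 members together held 0.585% and 0.584% of all counts in mutant and 0.607% and 0.450% in WT. WT replicate 2 was the low library in each of these sums that contain BAT1.

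BAT1 (YHR208W) encodes the mitochondrial branched-chain aminotransferase, which makes leucine, isoleucine and valine, and lies on the plus strand of chromosome VIII from 517532 to 518713. It had 3214 and 3358 CPM in mutant replicates 1 and 2, and 3380 and 2017 CPM in WT replicates 1 and 2. The other libraries stood close together and WT replicate 2 stood below them, by 1.68-fold from its own group. That differs from the table as a whole, where WT replicate 1 was the library apart. The log2 fold change was 0.28 (SE 0.25, 95% interval -0.34 to 0.90; edgeR adjusted p = 0.847). Without WT replicate 1 it was 0.70, and without WT replicate 2 it was -0.04. Each of these fits had a lone WT library. The spread therefore came from the mutant pair, pooled over all genes rather than taken from BAT1 alone.

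BAT2 (YJR148W), the cytosolic partner of BAT1, which takes part in breakdown of branched-chain amino acids, lies on the plus strand of chromosome X from 705744 to 706874. It had 526 and 694 CPM in mutant, against 651 and 676 CPM in WT, so the mutant libraries enclosed both WT libraries. Its log2 fold change was -0.12 (SE 0.18, 95% interval -0.55 to 0.31; edgeR adjusted p = 0.893). It was -0.33 with mutant replicate 2 left out and 0.07 with mutant replicate 1 left out.

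The ratio of BAT1 to BAT2, taken as counts per base within a library and so free of library size, was 5.84 and 4.63 in mutant, against 4.97 and 2.85 in WT. The groups overlapped, since WT replicate 1 lay between the mutant libraries. The mean was 5.23 ± 0.86 in mutant and 3.91 ± 1.50 in WT (SD, n = 2 each), a log2 difference of 0.47 with p = 0.667 in a two-sided exact permutation test. With 2 libraries a group that test cannot go below 0.333. The difference was 0.87 with WT replicate 1 left out and 0.06 with WT replicate 2 left out. BAT1 was above BAT2 per base in 4 of 4 libraries.

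ARO8 (YGL202W), the general aromatic aminotransferase, lies on the plus strand of chromosome VII from 116059 to 117561 and was the steadiest member. It had 1137 and 1096 CPM in mutant, against 1174 and 1026 CPM in WT, a 1.14-fold range over 4 libraries. The WT libraries enclosed the mutant libraries. The log2 fold change was 0.02 (SE 0.15, 95% interval -0.34 to 0.38; edgeR adjusted p = 0.987).

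ARO9 (YHR137W), the aromatic aminotransferase of amino acid breakdown, which aromatic amino acids induce, lies on the plus strand of chromosome VIII from 375709 to 377250. It had 353 and 399 CPM in mutant, against 440 and 316 CPM in WT, and again the WT libraries enclosed the mutant libraries. In edgeR the log2 fold change was -0.01 (SE 0.20, 95% interval -0.50 to 0.48; edgeR adjusted p = 0.996). It was 0.25 with WT replicate 1 left out and -0.23 with WT replicate 2 left out. The ratio of ARO8 to ARO9 per base was 3.30 and 2.82 in mutant, against 2.74 and 3.33 in WT. Its mean was 3.06 ± 0.34 in mutant and 3.04 ± 0.42 in WT (SD, n = 2 each; two-sided exact permutation p = 1).

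**Figure D3:**
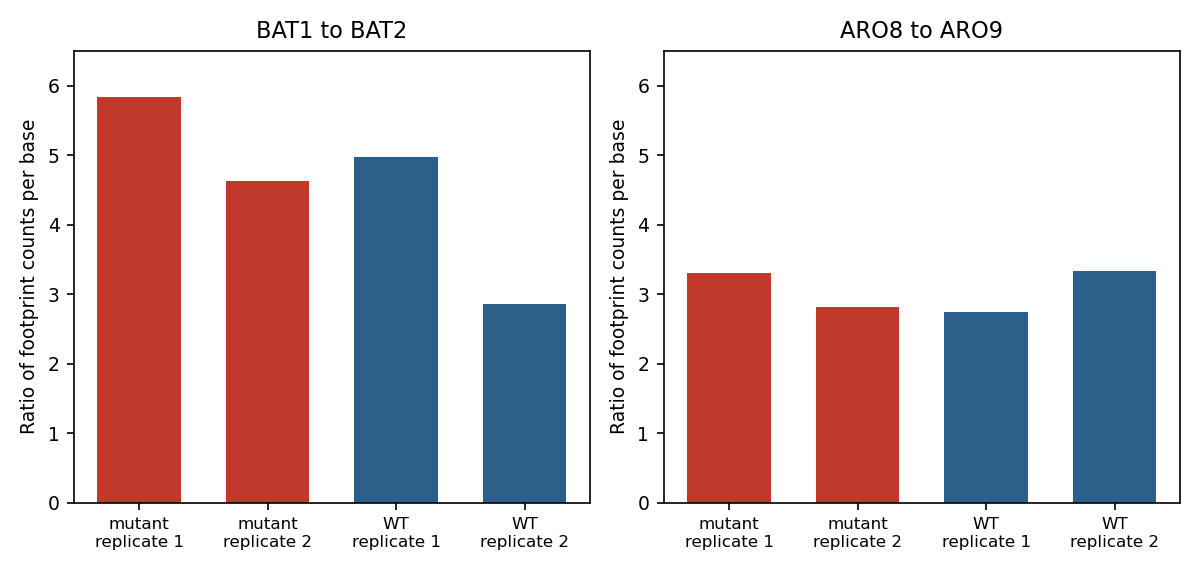
Ratio of footprint counts per base within each library for the branched-chain pair (left) and the aromatic pair (right); each bar is 1 library, mutant in red and WT in blue. BAT1 to BAT2 spans 2.85 to 5.84, with the lowest bar in WT replicate 2, while ARO8 to ARO9 spans 2.74 to 3.33.

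Levels per length separated the leading aminotransferases, while those of ARO9 and of most salvage-specific enzymes overlapped their neighbours in the order. BAT1 averaged 2531 ± 554 CPM per kilobase of coding sequence (SD, n = 4 libraries here and in this paragraph), ARO8 737 ± 42.1, BAT2 563 ± 67.0 and ARO9 244 ± 35.0. Among the salvage-specific enzymes ADI1 had 181 ± 32.2 CPM per kilobase, MEU1 116 ± 21.2, UTR4 110 ± 31.1, MRI1 98.3 ± 21.7 and MDE1 57.6 ± 7.62. The ranges of BAT1, ARO8, BAT2 and ARO9 did not overlap those of their neighbours in this order, except that ARO9 and ADI1 overlapped. MEU1, UTR4 and MRI1 overlapped each other, and ADI1 and MEU1 overlapped in range though ADI1 was higher in 4 of 4 libraries. MDE1 lay below MRI1 without overlap. Among the 5233 tested genes, the mean level per length placed BAT1 at percentile 98.3, ARO8 at 94.4, BAT2 at 93.2 and ARO9 at 87.8. The salvage-specific enzymes stood between percentile 66.6 (MDE1) and 84.6 (ADI1).

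Relative to the entry enzyme MEU1 in the same library, the level per length of MRI1 was 0.743 and 0.915 in mutant and 0.897 and 0.834 in WT. UTR4 was at 0.892 and 1.08 in mutant and 0.963 and 0.814 in WT. MDE1 was at 0.447 and 0.483 in mutant and 0.563 and 0.515 in WT. MDE1 had the lowest of these ratios in every library, and its mutant values lay below its WT values, a difference that was not tested. This order was not particular to MDE1. ARO8 was at 6.23 and 5.11 in mutant and 8.39 and 6.41 in WT. ARO9 (1.89 and 1.81 against 3.07 and 1.92) and BAT2 (3.83 and 4.30 against 6.18 and 5.61) had the same order. BAT1 overlapped, at 22.4 and 19.9 in mutant and 30.7 and 16.0 in WT. MEU1, the divisor, was itself higher in both mutant libraries than in both WT libraries. ADI1 was at 1.57 and 1.24 in mutant and 1.50 and 2.03 in WT, with overlap of the groups.

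**Figure D4:**
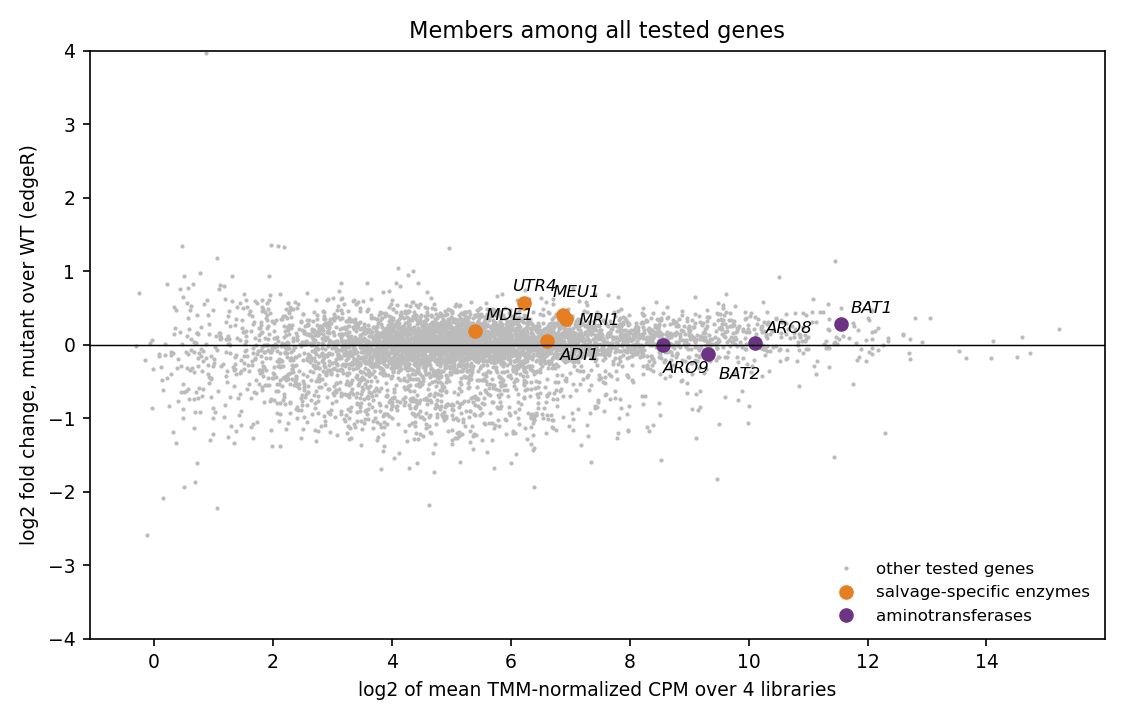
Log2 fold change (mutant over WT, edgeR) against the log2 of the mean TMM-normalized CPM over 4 libraries, for all 5233 tested genes; orange points are salvage-specific enzymes and purple points are aminotransferases. The members lie within the cloud of other genes, between -0.12 (BAT2) and 0.56 (UTR4).

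The regions before the coding sequences of BAT1 and BAT2 are shown because these paralogs had the highest and the third highest level per length of the members. The 150 bases that end 100 bases short of the start codon are shown for both, from the plus strand of RefSeq R64, at chrVIII:517282-517431 for BAT1 and chrX:705494-705643 for BAT2, with motif matches in capitals.
BAT1: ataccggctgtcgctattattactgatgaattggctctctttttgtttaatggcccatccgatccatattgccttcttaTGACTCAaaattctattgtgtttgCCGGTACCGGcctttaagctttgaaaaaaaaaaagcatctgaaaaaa
BAT2: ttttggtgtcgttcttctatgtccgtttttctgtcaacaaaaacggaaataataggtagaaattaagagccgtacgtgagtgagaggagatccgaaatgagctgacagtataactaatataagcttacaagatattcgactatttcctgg
The first capitals in BAT1 match TGACTCA, the motif of Gcn4, which activates amino acid synthesis genes, and the second match the palindrome bound by Leu3, the activator of branched-chain genes, with any base allowed at the middle pair of positions. Both strands of the 300 bases before each start codon were searched. TGACTCA occurred before 2.61% of 6007 genes (157 genes) and the Leu3 motif before 0.150% (9 genes). BAT1 was the 1 member of 9 with either motif in this window. The Leu3 motif also stood before LEU1 and LEU2, and before ATP5, BRO1, DRE2, FSF1, GAL11 and GAT1, which are in none of the lists used below. Of the other motifs searched, CACGTG (Cbf1; 3.56% of genes) occurred before ARO9 and GATAAG (the GATA factors; 14.7%) before ARO8. AAACTGTGG (Met31 and Met32; 0.533%) occurred before none of the 9. TGACTC, a shorter form that overlaps the Gcn4 motif, occurred before 7.76% of genes and again before BAT1 alone among the members. A match is a description of the letters and does not show binding.

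Neighbouring pathways and their regulators also had no gene past the threshold in edgeR with all libraries. Of the 74 genes in 8 such lists, 73 were tested, and 0 were higher and 0 lower at an adjusted p of 0.05, as were 0% of all genes. Without WT replicate 1, 4 of them were called higher and 0 lower, against 0.325% and 0.42% of all genes in that fit. Without WT replicate 2, 7 were called higher and 5 lower, against 4.35% and 14.9% of all genes. Counts of genes whose groups did not overlap are to be read against 19.1% of all genes with mutant higher and 17.9% with mutant lower. The genes named below are the pair of each list with the smallest unadjusted p. Fits without 1 WT library took the spread from the mutant pair, pooled over all genes rather than gene by gene. For the genes named below only the fold changes of these fits are given.

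Adenine salvage, which takes up the adenine that MEU1 releases, had all 6 genes above 0, with a median log2 fold change of 0.46. In 5 of the 6 the groups did not overlap, with mutant higher, and in none with mutant lower, against 19.1% and 17.9% of all genes. AAH1, the adenine deaminase, had 87.8 and 106 CPM in mutant, against 67.0 and 57.9 CPM in WT (log2 fold change 0.63, SE 0.19; edgeR adjusted p = 0.755). APT2, a paralog of the adenine phosphoribosyltransferase APT1, had 18.4 and 25.2 CPM in mutant, against 11.9 and 12.0 CPM in WT (log2 fold change 0.84, SE 0.24; edgeR adjusted p = 0.755). AAH1 was at 0.73 without WT replicate 1 and 0.52 without WT replicate 2, and APT2 was at 0.80 and 0.81. The median of the list was 0.33 with mutant replicate 2 left out and 0.60 with mutant replicate 1 left out.

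Methionine and AdoMet synthesis, which uses the methionine that salvage returns, had 14 of 17 genes above 0, a median of 0.18, and 9 genes with mutant higher and no overlap (0 with mutant lower). SAM4, which methylates homocysteine with AdoMet, had 142 and 191 CPM in mutant, against 111 and 83.0 CPM in WT (log2 fold change 0.77, SE 0.23; edgeR adjusted p = 0.755). SAM4 passed the threshold at 0.99 without WT replicate 1 (edgeR adjusted p = 0.000542) and at 0.57 without WT replicate 2 (edgeR adjusted p = 0.019). Its reads are uncertain, since 24.2% of its 28-base words also occur in YMR321C. HOM2, the aspartate semialdehyde dehydrogenase, had 2012 and 2006 CPM in mutant, against 1545 and 1446 CPM in WT (log2 fold change 0.43, SE 0.14; edgeR adjusted p = 0.755). The median of the list was 0.08 with WT replicate 1 left out and 0.14 with WT replicate 2 left out. In sulfate assimilation 4 of 8 tested genes lay above 0 (median 0.02), and 2 had mutant higher and 0 mutant lower without overlap. The median was -0.11 with WT replicate 2 left out and 0.14 with WT replicate 1 left out. MET14, the adenylylsulfate kinase, had a log2 fold change of 0.28. SUL2, a sulfate permease, had 5.90 and 8.14 CPM in mutant, against 17.6 and 6.81 CPM in WT, and its fold change of -0.87 became -0.04 without WT replicate 1. With WT replicate 2 left out instead it was -1.41. Polyamine synthesis, the source of methylthioadenosine, had 3 genes of 5 above 0 (median 0.08, or -0.05 without mutant replicate 2), and 1 gene in each direction without overlap, with SPE4, spermine synthase, at -0.17 and FMS1, polyamine oxidase, at -0.13.

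Branched-chain synthesis, which ends in BAT1, had 6 genes of 9 above 0 (median 0.34), and 5 genes with mutant higher and no overlap (0 with mutant lower). The median was 0.19 with WT replicate 2 left out and 0.21 with mutant replicate 2 left out. ILV5, the reductoisomerase, had 7564 and 8526 CPM in mutant, against 5952 and 6520 CPM in WT (log2 fold change 0.37, SE 0.16; edgeR adjusted p = 0.755). LEU2, the isopropylmalate dehydrogenase, had 101 and 155 CPM in mutant, against 88.5 and 76.1 CPM in WT (log2 fold change 0.62, SE 0.24; edgeR adjusted p = 0.755). LEU2 was at 0.29 without mutant replicate 2 and at 0.92 without mutant replicate 1. It passed the threshold without WT replicate 1 (edgeR adjusted p = 0.0458) and without WT replicate 2 (0.0464). Aromatic synthesis, which supplies the substrates of ARO8, had 6 genes of 7 above 0 (median 0.35), and 6 genes with mutant higher and no overlap (0 with mutant lower). ARO2, chorismate synthase, stood at 0.40 and ARO3, which makes the first intermediate, at 0.38. ARO2 passed without WT replicate 2 (0.52, edgeR adjusted p = 0.0328).

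The Ehrlich pathway, which breaks down the keto acids that ARO9 and BAT2 make, had 6 genes of 11 above 0, and 4 with mutant higher and 2 with mutant lower without overlap. Its median was 0.04 with all libraries, 0.10 without WT replicate 1, 0.27 without WT replicate 2 and 0.12 without mutant replicate 2. PDR12, an exporter of weak acids, had 158 and 154 CPM in mutant, against 479 and 218 CPM in WT (log2 fold change -1.16, SE 0.36; edgeR adjusted p = 0.755). WT replicate 1 stood far above the rest, and the fold change was -0.48 without it. With WT replicate 2 left out instead it was -1.61, in a fit whose only WT library was the high WT replicate 1. PDC6, a minor pyruvate decarboxylase, had 3.59 and 2.22 CPM in mutant, against 1.67 and 0.88 CPM in WT, from only 28 and 6 counts in mutant and 50 and 9 in WT. PDC6 had a log2 fold change of 1.18 (edgeR adjusted p = 0.755), between 0.73 and 1.84 with any 1 library left out. Of 10 regulators of these pathways 5 lay above 0, with a median of -0.002 (0.05 without WT replicate 1), and 2 in each direction did not overlap. The cofactor MET28 stood at -0.37 and the zinc finger protein MET31 at 0.35.

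**Figure D5:**
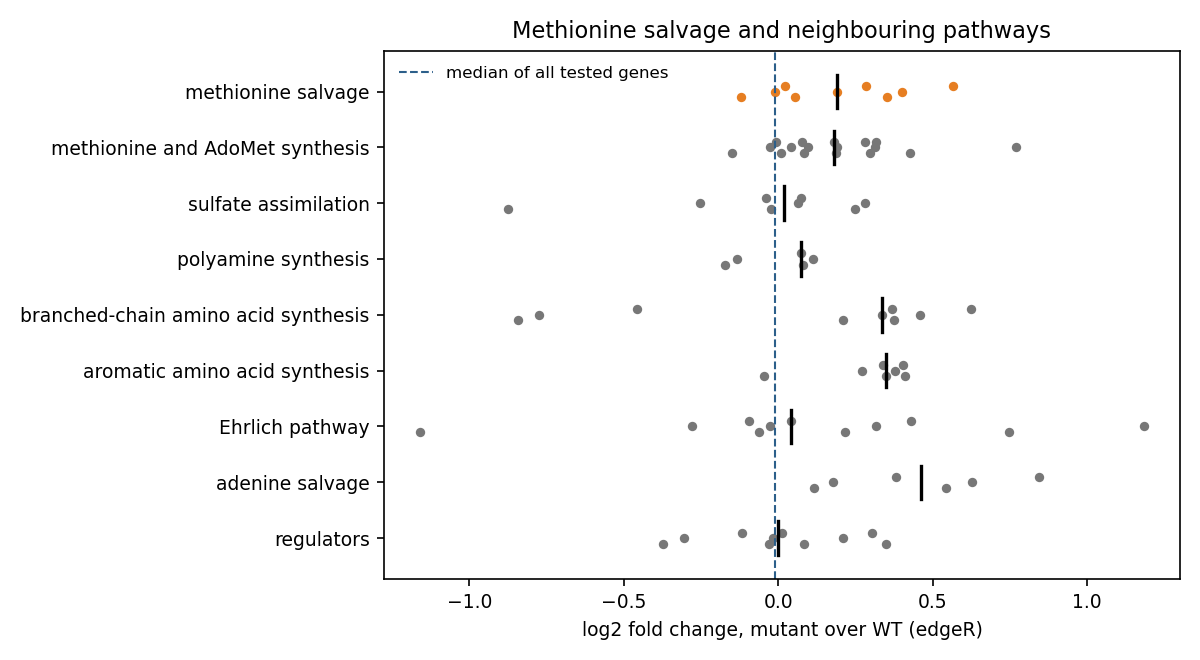
Log2 fold change (mutant over WT, edgeR) of the 9 members and of the tested genes of 8 neighbouring lists; each point is a gene, black ticks are list medians, and the dashed line is the median of all tested genes. The median is 0.19 for methionine salvage and 0.46 for adenine salvage, and no gene passed the adjusted threshold.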

How the data were processed

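The authors deposited 1 table of raw counts of footprints per coding sequence, with 1 column per library. Per the submitters' processing notes, Bowtie2, DESeq2 and sacCer3 (the R64 assembly) were used; versions, counting tool, read lengths, strand and treatment of multiply matching reads were not given in these sources. Data lines had doubled tabs, so each header name was given, in order, to a filled field. Of 6600 rows, 5917 matched RefSeq.

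Counts were tested over all genes with edgeR 4.0.16 (R 4.3.3; glmQLFit, glmQLFTest, two-sided), TMM, filterByExpr (minimum count 10, minimum total 15) and Benjamini-Hochberg adjustment at 0.05, and tested on simulated data. A count of 0 allows 3 counts, or 0.101 to 1.06 CPM. Wilson intervals cover counting error only, while the intervals of fold changes also hold the spread between libraries. Alternatives were DESeq2 1.42.0, other scalings, no filter, a replicate block and leaving out each library. SciPy 1.17.1 gave exact tests. Members and lists were chosen with earlier results of these data known; the 2 genes named per list had the smallest p.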

Additional observations from a re-analysis of the deposited data

How the results depend on the processing

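No member changed its call under DESeq2, RLE size factors, plain library totals, no filter on low counts or the replicate block. With all libraries DESeq2 called 4 genes lower, where edgeR called 0. Replicate numbers did not pair the samples by any label, and deviations of same-numbered libraries correlated at 0.08. With the replicate block 0 genes were called, and the log2 fold change of ARO9 was 0.0069, against -0.0094 without the block. Leaving out 1 library in turn, genes called ranged from 0 to 228 higher and 0 to 780 lower, members called higher from 0 to 1, and genes of the neighbouring lists from 0 to 7 higher and 0 to 5 lower. The log2 fold change ranged from 0.30 to 0.81 for UTR4, -0.23 to 0.41 for ADI1, -0.072 to 0.12 for ARO8, -0.23 to 0.25 for ARO9, -0.040 to 0.70 for BAT1, -0.33 to 0.071 for BAT2 and -0.41 to 0.0029 for SPE4. The median ranged from 0.067 to 0.32 over the 9 members, 0.10 to 0.52 over the salvage-specific enzymes and -0.083 to 0.18 over the aminotransferases. Fits without 1 library have fewer samples; beyond that the cause was not tested. Depth limits MDE1 most, with 137 counts in the shallowest library.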
